A study of Mus musculus with 2 samples.

Results

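Endothelial barcodes were described in a single-cell RNA sequencing library of cells sorted from adult mouse lung. They were the barcodes with at least 4 unique molecular identifiers (UMIs, each standing for 1 captured RNA molecule) summed over Cldn5, Cdh5, Ramp2 and Egfl7, and with fewer than 100 UMIs each of Sftpc and Scgb1a1. Lung barcodes were kept when they had 200 or more genes and when mitochondrial genes gave no more than 10% of UMIs. The rule found 170 endothelial barcodes among 8641 lung barcodes passing these filters (1.97%, exact binomial 95% interval 1.69 to 2.28), of 8730 deposited for lung and 15331 in the whole series. They are set against the 8471 other lung barcodes passing the same filters.

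The lung came from Foxp3-GFP mice on C57Bl/6, with Tachilla given as the strain, in which GFP reports Foxp3, the transcription factor gene that defines regulatory T cells (Tregs). The series' other library was made from back skin of Foxp3-CreERT2GFP mice on C57Bl/6. After collagenase digestion, cells with GFP, CD4, CD3 and CD45 on the sort gate were collected, a gate that endothelial cells should not pass, and 10x Single Cell 3' v2 libraries were made. The number of animals and their exact age are not given in the sources used here. Each tissue has 1 library, so no value has a replicate check and no test was run. Intervals are exact 95% Poisson (levels) or binomial (ratios and shares) intervals and cover counting error only. Because the members were chosen by their UMIs, every level set against the other barcodes is a description.

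Endothelial cells line blood and lymphatic vessels. Vascular endothelial cells seal the vessel wall through cadherin and claudin junctions, receive VEGF, angiopoietin, BMP and Notch signals, and control clotting, vessel tone and the entry of leukocytes. Lung capillaries are known in mice to hold a general capillary cell, marked by Gpihbp1, Plvap and Aplnr, and a large thin cell of the gas exchange surface, the aerocyte, marked by Car4, Ednrb and Apln. A different set of genes marks larger veins, arteries and lymphatic vessels.

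The 170 barcodes held blood vessel endothelial transcripts in most of their named genes. Plvap, the gene of the protein of capillary diaphragms, was at 2978 CPM (counts scaled to a common library total; 2824 to 3140) in endothelial barcodes and 5.35 CPM in other lung barcodes. A UMI of Plvap or Gpihbp1, which mark general capillary cells, was found in 155 of the 170. Aplnr, which also marks them, had a UMI in 63. The 155 include barcodes of the smaller sets that follow, so they are not a count of general capillary cells. Smaller sets were drawn by single genes. Of 10 barcodes high in Car4, 9 had the aerocyte genes Ednrb, Fibin and Apln. Of 11 high in Vwf, 7 had the venous genes Slc6a2 and Prss23. Ccl21a and other lymphatic genes were in 3 barcodes. T cell transcripts were low in most of the 170 barcodes and higher in 24 of them.

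Endothelial barcodes had a median of 2039 UMIs (556 to 12618) and 1157 genes, against 2372 UMIs and 903 genes in the other lung barcodes. Their summed UMIs were 470111, against 23753186 in the others. Ribosomal protein genes took 14.2% of UMIs in endothelial barcodes and 38.0% in the others. Mitochondrial UMIs had medians of 1.96% and 2.43%. The other barcodes include 59 epithelial-high barcodes, with at least 100 UMIs of Sftpc or Scgb1a1, and 5 of these also had 4 or more UMIs of the 4 genes. Of the endothelial barcode names, 3 also occur in the skin library, among 82 names that both libraries share.

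The 4 genes of the rule encode endothelial junction, receptor and matrix proteins, and their values chose the members. Cldn5, the gene of the tight junction protein claudin 5, had 2175 UMIs in 163 of 170 endothelial barcodes. Cdh5, the gene of VE-cadherin, had 566 UMIs in 152. Ramp2, which encodes an accessory protein of the adrenomedullin receptor, had 1597 UMIs in 163, and Egfl7, the gene of a secreted vascular protein, had 1106 UMIs in 166. All 4 genes were detected together in 140 barcodes, 3 of them in 24 and 2 of them in 6. The sum over the 4 had a median of 28 per endothelial barcode, far from the threshold of 4 for most.

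Near the threshold the barcodes were less clear. There were 6 barcodes just inside it, at 4 UMIs of the 4 genes, and 6 just outside, at 3 UMIs. A list of 29 further pan-endothelial genes, none of them in the rule, took 0.782% of UMIs in the 6 at 4 UMIs and 0.326% in the 6 at 3 UMIs. In the 126 barcodes with 20 or more UMIs of the 4 genes, the same list took 2.05% of UMIs. In the 8032 barcodes with none it took 0.105%. Barcodes at 2 UMIs, 16 in number, stood at 0.246%.

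**Figure D1:**
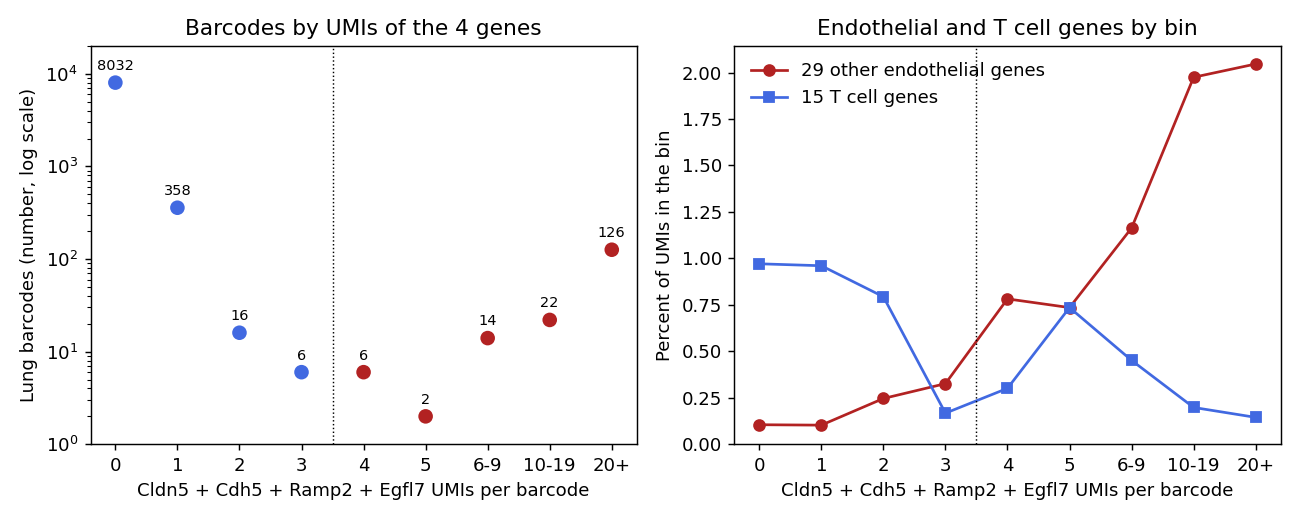
By UMIs of the 4 genes that chose the members, the left panel gives the number of lung barcodes on a log axis, without the epithelial-high ones, and the right panel gives the percent of UMIs taken by 29 other endothelial genes and by 15 T cell genes; the dotted line is the threshold. Endothelial genes take 0.105% of UMIs at 0 UMIs of the 4 genes and 2.05% at 20 or more, where T cell genes take 0.145%.

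The label was set beside the same list. The list was chosen with earlier results of these data known, so it is not an independent check. Pan-endothelial genes summed to a median of 48.5 UMIs per endothelial barcode and 2 per other lung barcode, and took 1.98% against 0.105% of all UMIs. Of the list's UMIs in the other lung barcodes, 73.4% came from Ets1 alone, a transcription factor gene that lymphocytes also express, against 1.82% in the endothelial barcodes. Without Ets1 the list summed to 19459 CPM in endothelial barcodes and 279 CPM in the others. Apart from Ets1, the list was thus low in the other lung barcodes.

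Genes were compared as summed UMIs per set, scaled to CPM over all genes but the 4 of the rule. A gene was counted as higher or lower when log2 of (CPM + 5) differed by at least 2, a 4-fold difference on that scale, among the 6775 genes that reached 20 CPM in 1 of the 2 sets. On this count 1120 genes were at least 4-fold higher in endothelial barcodes, 16.5% of those tested, and 220 were at least 4-fold lower, 3.25%. The median log2 ratio over all 6775 genes was 0.56. When mitochondrial and ribosomal protein genes were left out of the totals, the median was 0.09, a shift of −0.47, and the split became 1048 higher and 425 lower, so that 71.1% of the called genes were higher, against 83.6% before. Without 24 endothelial barcodes rich in T cell UMIs, taken up with the T cell genes, 1276 genes were higher and 375 lower. Of the 29 pan-endothelial genes 27 passed the filter, and 25 of them were at least 4-fold higher, with a median log2 ratio of 6.02. The 2 others tested were Ets1, at 362 CPM in endothelial and 771 CPM in other lung barcodes, and Fli1, another ETS factor gene, at 81.8 and 80.5 CPM. Erg and Nos3 stayed below the filter, with 4 and 6 UMIs in the endothelial barcodes.

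The 30 genes ranked highest by ratio were shared widely among the endothelial barcodes. A barcode held UMIs of 4 to 29 of these 30 genes, with a median of 25, and 164 of 170 barcodes held at least 10. Among the other lung barcodes without the epithelial-high ones, 7077 of 8412 held none of the 30 and 9 held at least 10. The 30 were picked by their ratio between these same sets, so their scarcity in the other barcodes follows from the choice. The median gene of the 30 had a UMI in 143 of the 170 endothelial barcodes, and 28 of the 30 were found in over 50% of them. Their log2 ratios ran between 6.52 and 8.32.

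Capillary and transport genes led the ranking. Plvap (ENSMUSG00000034845, chromosome 8, 71497765 to 71511752, minus strand) had a UMI in 151 of 170 endothelial barcodes, with a median of 6 and a highest value of 37, and was 557-fold (464 to 673) higher than in the other barcodes. Gpihbp1, whose product holds lipoprotein lipase on the capillary surface (ENSMUSG00000022579, chromosome 15, 75596628 to 75599481), was at 1627 CPM against 3.16 CPM and was found in 138 barcodes. Aqp1, the gene of a water channel, was at 2047 against 4.55 CPM (450-fold, 369 to 554). These 3 genes were in the large majority of endothelial barcodes, and each had a UMI in under 1.5% of the other lung barcodes.

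Enzyme genes stood beside them. Hpgd, whose enzyme inactivates prostaglandins, was at 2331 CPM in endothelial barcodes and 4.34 CPM in the others (537-fold, 439 to 664), with UMIs in 153 barcodes. Cyp1a1, a cytochrome P450 gene induced through the aryl hydrocarbon receptor (ENSMUSG00000032315, chromosome 9, 57687928 to 57703824), was at 1586 against 1.73 CPM, a ratio of 919 (671 to 1291), in 126 barcodes with up to 34 UMIs. Ace, the gene of angiotensin-converting enzyme, was at 792 against 2.36 CPM in 121 barcodes. Cyp4b1 was at 880 against 3.24 CPM.

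Surface and signalling genes made up most of the rest of the 30. Tspan7, a tetraspanin gene, was at 2255 CPM in endothelial barcodes and 4.50 CPM in the others. Clec14a, the gene of an endothelial C-type lectin, was at 1696 against 2.86 CPM. Tm4sf1 was at 1913 against 4.50 CPM and reached 66 UMIs in 1 barcode. Foxf1, a transcription factor gene needed for lung capillary development in mice (ENSMUSG00000042812, chromosome 8, 121084386 to 121088144), was at 766 against 1.43 CPM, 535-fold (376 to 785), in 118 barcodes. Edn1, the gene of the vasoconstrictor endothelin 1, was at 544 against 0.716 CPM in 77 barcodes, fewer than for any of the 30 but Ccl21a. Ccl21a, first in the ranking at 2524 against 2.90 CPM, had all its UMIs in 3 endothelial barcodes and is taken up with the lymphatic genes.

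**Figure D2:**
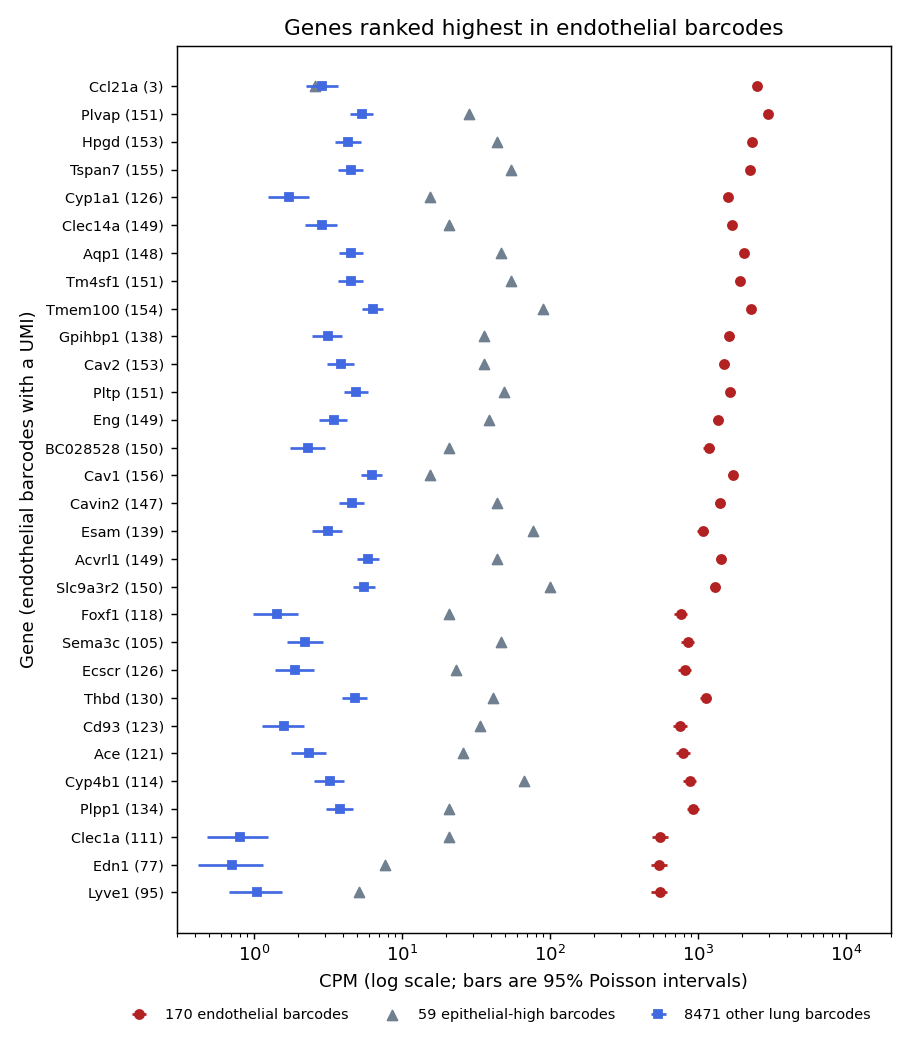
CPM on a log axis of the 30 genes with the highest ratio in 170 endothelial barcodes, in 59 epithelial-high barcodes and in all 8471 other lung barcodes, with 95% Poisson bars for the endothelial and the other lung barcodes and the number of endothelial barcodes with a UMI in brackets. All 30 genes are at least 4-fold higher in endothelial than in epithelial-high barcodes on the log2 of (CPM + 5) scale, and Ccl21a rests on 3 barcodes.

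The promoters of 2 of these genes are shown because members of the ETS transcription factor family, which endothelial genes are known to use, bind sites with a GGAA core, and because each holds the 6-base motif AGGAAG or its reverse complement CTTCCT 2 times. They are the 250 bases before the RefSeq start on GRCm38.p6, 5′ to 3′, with the motif in capitals; Eng encodes the BMP co-receptor endoglin and lies on the plus strand at chr2:32646345-32646594, and Ace lies on the plus strand at chr11:105967698-105967947.
Eng: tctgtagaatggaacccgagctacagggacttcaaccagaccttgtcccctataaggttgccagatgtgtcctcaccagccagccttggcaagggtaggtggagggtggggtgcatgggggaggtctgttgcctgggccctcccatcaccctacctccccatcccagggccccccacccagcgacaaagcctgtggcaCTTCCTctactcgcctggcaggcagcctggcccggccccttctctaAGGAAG
Ace: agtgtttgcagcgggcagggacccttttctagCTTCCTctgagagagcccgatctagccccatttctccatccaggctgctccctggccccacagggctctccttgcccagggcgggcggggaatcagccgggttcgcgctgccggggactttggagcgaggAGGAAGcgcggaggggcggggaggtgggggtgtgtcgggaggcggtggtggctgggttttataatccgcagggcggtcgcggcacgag
On either strand, the motif was in 9 of the 18 named genes found in the RefSeq table, in windows of 300 bases that reach 50 bases past the start. In the pan-endothelial list it was in 8 of 14 (57.1%), against 9498 of 27025 genes in the table (35.1%). A match is a description of these letters, not of binding.

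Receptors and ligands of vascular growth were higher throughout. Of the 13 tested genes of VEGF, angiopoietin and apelin signalling, 13 were at least 4-fold higher in endothelial barcodes, with a median log2 ratio of 4.06. The shares over all genes tested, 16.5% higher and 3.25% lower, apply beside this count and those of the lists below. A list gene could pass the filter through the endothelial barcodes alone, and list genes low in both sets dropped out. For endothelial lists this favours a high count of higher genes. Tie1 and Tek, the angiopoietin receptor genes, were at 407 and 362 CPM in endothelial barcodes, against 0.926 and 0.632 CPM in the others. Kdr and Flt1, the genes of VEGF receptors 2 and 1, were at 230 and 245 CPM, against 1.01 and 0.842 CPM. Aplnr, the apelin receptor gene, was at 239 against 0.421 CPM. Nrp1, a VEGF and semaphorin co-receptor gene that T cells also express, was at 443 CPM in endothelial barcodes and 67.5 CPM in the others.

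BMP and Notch genes were higher as well. Of 16 tested BMP and TGF-beta genes 11 were at least 4-fold higher and 0 lower. Acvrl1, the gene of the receptor ALK1, was at 1435 against 5.94 CPM, and Eng at 1367 against 3.45 CPM (396-fold, 314 to 505). Tmem100, a target of ALK1 signalling, was at 2268 against 6.36 CPM. The BMP response genes Id1 and Id3 were at 581 and 1664 CPM in endothelial barcodes, against 3.33 and 84.5 CPM in the others, and the inhibitory Smad6 at 258 against 1.01 CPM. Tgfbr2, the TGF-beta receptor gene, was within 4-fold at 55.9 against 44.2 CPM. Of 8 tested Notch genes 7 were at least 4-fold higher, among them the target Hes1 at 415 against 5.85 CPM and the ligand Dll4 at 168 against 0.505 CPM. Notch1 was at 79.6 against 17.0 CPM, within 4-fold on the scale used.

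Genes of the adrenomedullin and CGRP receptors, of which Ramp2 was used to choose the members, split by subunit. Calcrl, the gene of the receptor itself, was at 822 CPM in endothelial barcodes and 7.11 CPM in the others, and Adcy4, an adenylyl cyclase gene, at 187 against 0.379 CPM. Ramp1, which turns the receptor into a CGRP receptor, was lower, with 3 UMIs (6.46 CPM) in endothelial barcodes against 71.2 CPM in the others. Ramp3 was at 77.5 against 31.4 CPM. Over the 6 tested genes 2 were at least 4-fold higher and 1 lower, against 16.5% and 3.25% of all genes tested. A list of 6 is too short to set apart from those shares.

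Of 22 tested transcription factor genes known from endothelium, 16 were at least 4-fold higher and 0 lower, with a median log2 ratio of 4.15. Within 4-fold were Klf2, Ets1, Ets2, Fli1, Foxo1 and Nr2f2. Epas1, the gene of the hypoxia factor HIF-2 alpha, was at 975 CPM in endothelial barcodes and 8.50 CPM in the others. Klf4 was at 687 against 23.5 CPM. Gata2 was at 310 against 0.800 CPM and Sox17, a gene of arterial and capillary endothelium, at 275 against 0.379 CPM. These 4 genes were thus low outside the endothelial barcodes. Klf2, which responds to blood flow in endothelium and is also active in recirculating T cells, was at 2628 CPM in endothelial barcodes and 2372 CPM in the others. Tal1 had 12 UMIs in endothelial barcodes and 0 in the others, at least 204-fold higher against a limit of 3 counts over the other barcodes.

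Genes of the vessel wall were higher in each list. All 8 tested caveolae genes were at least 4-fold higher. Cav1, the main caveolin gene of endothelium, was at 1717 against 6.23 CPM, in 156 of 170 barcodes, and Cav2 and Cavin2 were at 1496 and 1407 CPM, against 3.87 and 4.59 CPM. Of 14 junction genes 12 were higher, among them Pecam1, the gene of CD31, at 1113 against 96.3 CPM, and Esam, an adhesion molecule gene, at 1076 against 3.16 CPM. Of 12 basement membrane and matricellular genes 10 were higher. The collagen IV genes Col4a1 and Col4a2 were at 241 and 153 CPM in endothelial barcodes, against 4.08 and 2.86 CPM in the others, and Sparc, the gene of a collagen-binding protein, at 932 against 53.1 CPM.

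Clotting, vessel tone and lipid genes showed the same direction. Of 8 coagulation genes 6 were at least 4-fold higher, among them Thbd, the gene of the anticoagulant receptor thrombomodulin, at 1130 against 4.80 CPM. Of 8 vasoactive genes 7 were higher, with the natriuretic peptide receptor genes Npr1 and Npr3 at 131 and 103 CPM in endothelial barcodes, against 1.10 and 0.337 CPM in the others. Of 8 lipid genes 7 were higher. Cd36, a fatty acid receptor gene, was at 1569 against 14.6 CPM in 155 barcodes, Pltp, a phospholipid transfer protein gene, at 1655 against 4.93 CPM, and Lpl, the gene of lipoprotein lipase, at 235 against 3.37 CPM. Fabp4, a fatty acid binding protein gene used as a capillary marker in other organs, had 4 UMIs in the endothelial barcodes.

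All 11 tested genes of leukocyte adhesion and trafficking were at least 4-fold higher in endothelial barcodes. Icam2 and Icam1, ligands of leukocyte integrins, were at 1166 and 263 CPM in endothelial barcodes, against 52.8 and 35.4 CPM in the others. Cxcl12, a chemokine gene, was at 402 against 3.03 CPM. Vcam1 was at 53.8 against 4.76 CPM with its 25 UMIs in 10 barcodes. Sele and Selp, the E- and P-selectin genes, had 2 and 1 UMIs in endothelial barcodes, and Ackr1 and Madcam1 had 0 UMIs in both sets. A count of 0 in the endothelial barcodes allows up to 3 UMIs, or 6.46 CPM.

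Some genes on the surface of endothelium are also Treg genes. S1pr1, the sphingosine 1-phosphate receptor gene that guides T cells out of tissue and stabilises vessels, was at 424 CPM in endothelial barcodes and 263 CPM in the others, within 4-fold. Spns2, the gene of the sphingosine 1-phosphate exporter, was at 49.5 against 0.126 CPM. Lrrc32, the gene of the TGF-beta docking receptor GARP, was at 116 against 170 CPM. Ly6a, the gene of Sca-1, was at 3402 against 230 CPM and Ly6c1 at 1961 against 241 CPM. Both have near-identical family members that can share reads. Thy1 was at 77.5 CPM in endothelial barcodes and 297 CPM in the others.

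Presentation and interferon genes differed by class. All 8 tested MHC class I genes were within 4-fold, B2m at 5763 against 4318 CPM for example. Of 6 class II genes 4 were higher. The class II list summed to 1418 CPM in endothelial barcodes and 266 CPM in the others, but to 5817 CPM in the epithelial-high barcodes among these. H2-Ab1 was at 389 against 32.0 CPM, with UMIs in 67 endothelial barcodes, and Cd74, the invariant chain gene, at 611 against 149 CPM in 52, which fell just short of 4-fold on the scale used. Ifitm3 and Ifitm2, interferon-induced antiviral genes, were at 3409 and 1885 CPM in endothelial barcodes, against 51.8 and 30.9 CPM in the others, whereas Ifi27l2a was lower, at 392 against 2647 CPM. Over 15 interferon-stimulated genes 5 were at least 4-fold higher and 1 lower, with a median log2 ratio of 1.26, against 16.5% higher, 3.25% lower and a median of 0.56 over all genes tested.

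Of 18 tested early response genes, which enzymatic digestion of tissue also induces, 7 were at least 4-fold higher and 0 lower, with a median log2 ratio of 1.45. Over all genes tested 16.5% were higher and 3.25% lower, and the median was 0.56. Jun was at 3303 against 440 CPM, in 145 of 170 endothelial barcodes with up to 43 UMIs. Hspa1a, a heat shock gene with the near-identical paralog Hspa1b, was at 2449 against 337 CPM in 112 barcodes. Atf3 was at 228 against 8.67 CPM with its 106 UMIs in 30 barcodes, and Ier3 at 626 against 6.57 CPM in 89. The part of the digestion in these levels was not tested. Of 10 cell cycle genes 4 passed the filter, with 0 higher and 1 lower, Birc5, at 2.15 against 28.5 CPM.

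Of the 12 genes ranked lowest in endothelial barcodes, 5 were on the alveolar type 2 or club cell lists and 2 on the T cell or Treg lists. Sftpc, the surfactant protein C gene that the rule limits, was at 232 CPM (191 to 281) in endothelial barcodes and 3664 CPM in the others, and Scgb1a1, the club cell secretory gene that it also limits, at 172 against 1525 CPM. Most of the UMIs in the others came from the 59 epithelial-high barcodes. Without these, Sftpc was at 198 CPM and Scgb1a1 at 143 CPM in the other barcodes, and the log2 ratios turned to 0.23 and 0.26. Sftpa1 turned in the same way, to 0.36, and Lyz2 and Sftpb moved to −0.26 and −0.65. The low rank of these 5 genes thus rests on the epithelial-high barcodes.

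Among the remaining 7 of the 12 were genes of T cells and other leukocytes. Cd28, the costimulatory receptor gene of T cells, was at 43.0 CPM in endothelial barcodes and 393 CPM in the others, Izumo1r, the gene of folate receptor 4 on Tregs, at 77.5 against 594 CPM, and Sh2d1a, the gene of the T cell adaptor SAP, at 23.7 against 202 CPM. Cd53, a leukocyte tetraspanin gene, was at 88.2 against 657 CPM. Cotl1, which encodes an actin-binding protein, was at 58.1 against 576 CPM, S100a4, a calcium-binding protein gene, at 15.1 against 236 CPM, and Tspan32 at 28.0 against 242 CPM.

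T cell transcripts remained measurable in the endothelial barcodes. The 15 T cell list genes took 0.166% of their UMIs, against 0.955% in the other lung barcodes and 0.0813% in the epithelial-high barcodes. Of the 15, all tested, 13 were at least 4-fold lower and 0 higher, with a median log2 ratio of −2.43. Trbc2, the gene of a T cell receptor constant chain that shares sequence with Trbc1, was at 372 CPM in endothelial barcodes and 2194 CPM in the others. Cd3e was at 123 against 713 CPM and Ptprc, the gene of CD45, at 83.9 against 426 CPM. Cd4 was at 25.8 against 108 CPM. Foxp3 had 3 UMIs in the 170 endothelial barcodes, spread over 3 barcodes.

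At least 1 T cell list UMI was found in 128 of 170 endothelial barcodes (75.3%, 68.1 to 81.6), against 99.6% of other lung barcodes. In epithelial-high barcodes, which should lack these genes, the share was 84.7% at a median of 6108 UMIs, against a median of 2039 in endothelial barcodes. With every barcode thinned to 1000 UMIs, the share was 55.3% in 150 endothelial barcodes (20 shallower ones left out) and 99.2% in 8364 other lung barcodes (107 left out), and 39.7% in 58 epithelial-high barcodes (1 left out).

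The T cell UMIs were unevenly spread. Of the 170 endothelial barcodes 42 had none, 104 had 1 to 5, 2 had 6 to 10 and 22 had 11 or more, up to 49. The other lung barcodes had a median of 22. A bound of 6 UMIs, set after seeing this spread, separates 24 barcodes from 146. The 24 had a median of 4677.5 UMIs in all, the 146 a median of 1948.5.

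The split by T cell UMIs fixes the levels of the T cell list, which took 0.456% of the UMIs of the 24 and 0.0613% of those of the 146. Of genes not used in the split or the rule, ribosomal protein genes took 23.3% of UMIs in the 24 and 10.96% in the 146. The pan-endothelial list took 1.34% and 2.21%, with medians of 52 and 48 UMIs per barcode. These medians hide weak members. One of the 24 had 4 UMIs of the 4 genes, 6 of the pan-endothelial list, 15 T cell UMIs and 0 of Plvap, Hpgd, Tspan7 and Clec14a. Another had 5, 9 and 24 UMIs of the 3 lists. Lung barcodes with none of the 4 genes reached 20 pan-endothelial UMIs, so the name endothelial is weak for such members. Of the 24, 22 held at least 10 of the 30 named genes. Plvap was at 2218 CPM in the 24 and 3254 CPM in the 146. No doublet caller was used, and whether 2 cells shared a droplet in these 24 was not tested.

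**Figure D3:**
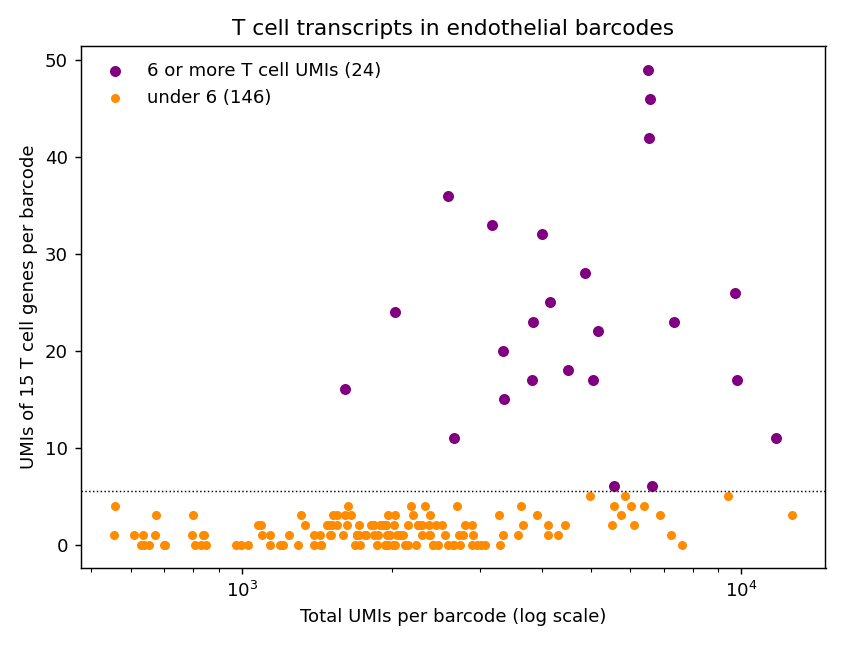
UMIs of 15 T cell genes against all UMIs (log axis) in each of the 170 endothelial barcodes. The dotted line is the bound of 6 UMIs, with 24 barcodes above it, up to 49 UMIs, and 146 below.

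Treg list genes were not used in the split, but sorted Tregs express both lists, so their levels are not independent of it. In the 146 low barcodes Ikzf2, the gene of the factor Helios, stood at 3.7% of its level in the other lung barcodes without the epithelial-high ones, and Ctla4, an inhibitory receptor gene, at 5.9%. The other Treg list genes but Lrrc32 lay between 4.2% (Tnfrsf18) and 21.8% (Foxp3, on 1 UMI). Lrrc32 stood at 61.3% of its level in the same other barcodes, with 36 UMIs in the 146. S1pr1 had 143 UMIs there, at 419 CPM.

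A second deposited lung table was treated as a shallower table of the same cells, though the labels do not say what it is. It lists 8626 barcodes, all present in the main table, and 169 of the 170 endothelial barcodes. In these it kept 92.2% of all UMIs and 94.0% of those of the 30 named genes. Summed over barcodes, Sftpc and Scgb1a1 kept a smaller share in the endothelial barcodes, and T cell genes did so in those with few T cell UMIs. In the endothelial barcodes with under 6 T cell UMIs in the main table the second table held 98 UMIs of the T cell list (47.8%), against 205 in the main table, and 48.3% of these barcodes had such a UMI, against 71.0%. In the 24 barcodes with 6 or more T cell UMIs the list kept 91.1%, close to the 92.9% in the other lung barcodes without the epithelial-high ones. Sftpc kept 63.0% in endothelial barcodes and 96.4% in the epithelial-high ones, and Scgb1a1 46.2% and 95.3%. Endothelial genes likewise kept less in the other lung barcodes without the epithelial-high ones. There the 4 genes of the rule kept 61.6% and the 30 named genes 70.7%, against 92.1% of all UMIs.

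Lrrc32 kept 83.3% and S1pr1 93.4% of their UMIs in the endothelial barcodes. What distinguishes the 2 tables in their processing is not given in the sources used here, and its part in these losses was not tested.

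**Figure D4:**
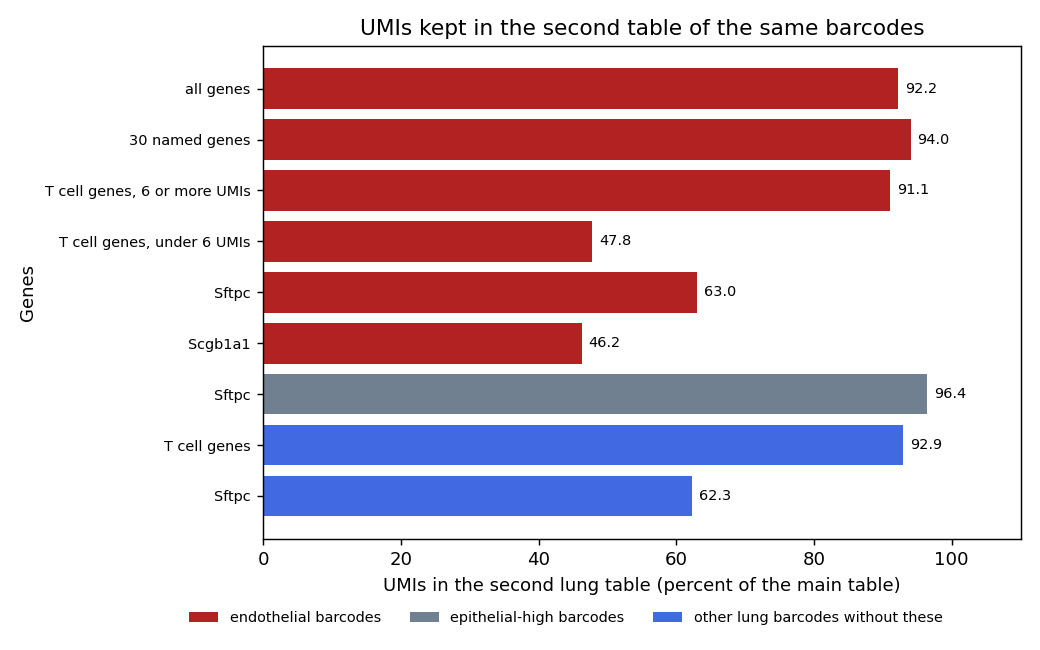
Bars give the UMIs that the second, shallower lung table holds as a percent of those in the main table for the same barcodes, for gene groups in endothelial, epithelial-high and other lung barcodes. In endothelial barcodes all genes keep 92.2%, and T cell genes keep 91.1% where a barcode has 6 or more of their UMIs and 47.8% where it has fewer.

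Among themselves the endothelial barcodes differed by vessel type genes. All 9 tested general capillary genes, 13 aerocyte genes and 6 arterial genes were at least 4-fold higher in the 170 than in the other lung barcodes, as were 9 of 10 venous and 6 of 7 lymphatic genes. The filter favoured such counts. All 12 arterial list genes summed to 12.5 CPM in the other lung barcodes, so the 6 tested passed only through the endothelial barcodes. Plvap or Gpihbp1 was found in 155 barcodes, and Sema3c, a semaphorin gene of general capillary cells, in 105. Car4 had UMIs in 37 barcodes and 5 or more in 10. Vwf had UMIs in 39 and 5 or more in 11. Bounds of 5 UMIs for Car4 and for Vwf were chosen after seeing these values, 1 barcode passed both, and genes set between the resulting groups are descriptions.

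Of the 10 Car4-high barcodes, 9 held the aerocyte genes Ednrb, Fibin and Apln. Car4 itself, the gene of membrane-bound carbonic anhydrase 4, chose the 10. A bound in raw UMIs favours deep barcodes: the median of the 10 was 5069.5 UMIs, against 2039 over all endothelial barcodes. Of 27 barcodes with 1 to 4 Car4 UMIs, 2 had a Fibin UMI. Ednrb, the endothelin receptor B gene, was at 786 CPM in the Car4-high barcodes and 24.5 CPM in the 160 other endothelial barcodes (32.0-fold, 15.9 to 71.2), with UMIs in 9 of 10 and 8 of 160. Fibin was at 716 against 19.6 CPM in 9 of 10 and 4 of 160, and Apln, the apelin gene, at 367 against 19.6 CPM in 9 and 7. Each of these genes was thus in nearly all Car4-high and few other barcodes. The Car4-high barcode without them had 5 Car4 UMIs among 1211, 0 UMIs of Igfbp7 and Emp2, and 6 of Plvap. The barcode that was also Vwf-high had 4 Slc6a2, 3 Prss23 and 17 T cell UMIs. Of the 10, 2 had 6 or more T cell UMIs. Igfbp7 was at 6950 against 491 CPM, Emp2 at 2148 against 172 CPM and Kdr at 768 against 155 CPM. A barcode of the 10 that also carried fibroblast genes held 76 of the 398 Igfbp7 and 28 of the 123 Emp2 UMIs.

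Summed over the same 10 barcodes, general capillary genes were lower, but not in each barcode. Plvap was at 873 CPM in Car4-high and 3274 CPM in the other endothelial barcodes, a ratio of 0.267 (0.197 to 0.354). Its UMIs were in 5 of the 10, at 12, 6, 10, 11 and 11, and in 146 of the 160 others. The median over all 170 endothelial barcodes was 6. Gpihbp1 was at 629 against 1767 CPM, with UMIs in 6 of 10 and 132 of 160. Sema3c was at 192 against 947 CPM, in 5 and 100. Aplnr, the receptor of apelin, was at 87.3 against 260 CPM, in 2 and 61. Tspan7 and Hpgd were closer, at 1886 against 2307 CPM and 1869 against 2396 CPM.

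The 11 Vwf-high barcodes were mixed. Vwf encodes von Willebrand factor and chose them, and their median was 5754 UMIs. Of the 11, 7 had UMIs of both Slc6a2 and Prss23, and 1 had neither but had UMIs of Cpe, also on the venous list. The last 3 had none of these 3 genes, and had Hey1 UMIs of 4, 3 and 2 and Dll4 UMIs of 3, 2 and 1, genes of the arterial list. Slc6a2, the noradrenaline transporter gene, was at 704 CPM in the 11 Vwf-high barcodes and 4.92 CPM in the 159 other endothelial barcodes, with UMIs in 7 of 11 and 2 of 159. Bst1 was at 292 against 4.92 CPM in 8 and 2 barcodes. Vcam1 was at 344 against 12.3 CPM in 6 and 4, Cpe, a carboxypeptidase gene, at 412 against 19.7 CPM in 6 and 4, and Prss23 at 1099 against 182 CPM. Cytl1, on no list here, was at 1168 against 7.38 CPM in 6 and 3. Each of these genes was thus in 6 to 8 of the 11 barcodes. Nr2f2, a venous transcription factor gene, and Ephb4, a venous receptor gene, did not follow, at 34.4 against 29.5 CPM and 189 against 177 CPM. Plvap stayed in 10 of the 11 at 2456 against 3053 CPM.

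The 3 barcodes with Ccl21a carried lymphatic genes. Ccl21a, the chemokine gene of lymphatic vessels and lymph nodes, had 595, 408 and 170 UMIs in them and none in the 167 others; it has near-identical copies that can share reads. Mmrn1 had 23, 9 and 4 UMIs and Reln 6, 1 and 2, each with none elsewhere. Prox1, the factor that defines lymphatic identity, had 4 UMIs, all in 1 of the 3. Flt4, the gene of VEGF receptor 3, had 3, 1 and 3. The blood capillary genes Hpgd, Tspan7, Tmem100, Gpihbp1, Cd36 and Ly6c1 had 0 UMIs in the 3 barcodes, while Plvap had 4, 0 and 4. Lyve1, a hyaluronan receptor gene used as a lymphatic marker, was not limited to them, with 23 of its 256 UMIs there and UMIs in 95 of the 170. Without these 3 barcodes and 4 others described next, Ccl21a had a log2 ratio of −0.66 against the other lung barcodes.

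Arterial genes were spread thinly. Gja4, the gene of the arterial connexin 37, had UMIs in 86 barcodes, Stmn2 in 89, Hey1 in 51, Dll4 in 45 and Efnb2 in 37. Gja5, the gene of connexin 40, had 8 UMIs in 7 barcodes and Bmx 7 UMIs in 5, so no arterial set was drawn. Of the 170 barcodes 26 were in at least 1 of the sets named here or in the 4 barcodes below, and of the 144 in none, 135 had a UMI of Plvap or Gpihbp1.

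**Figure D5:**
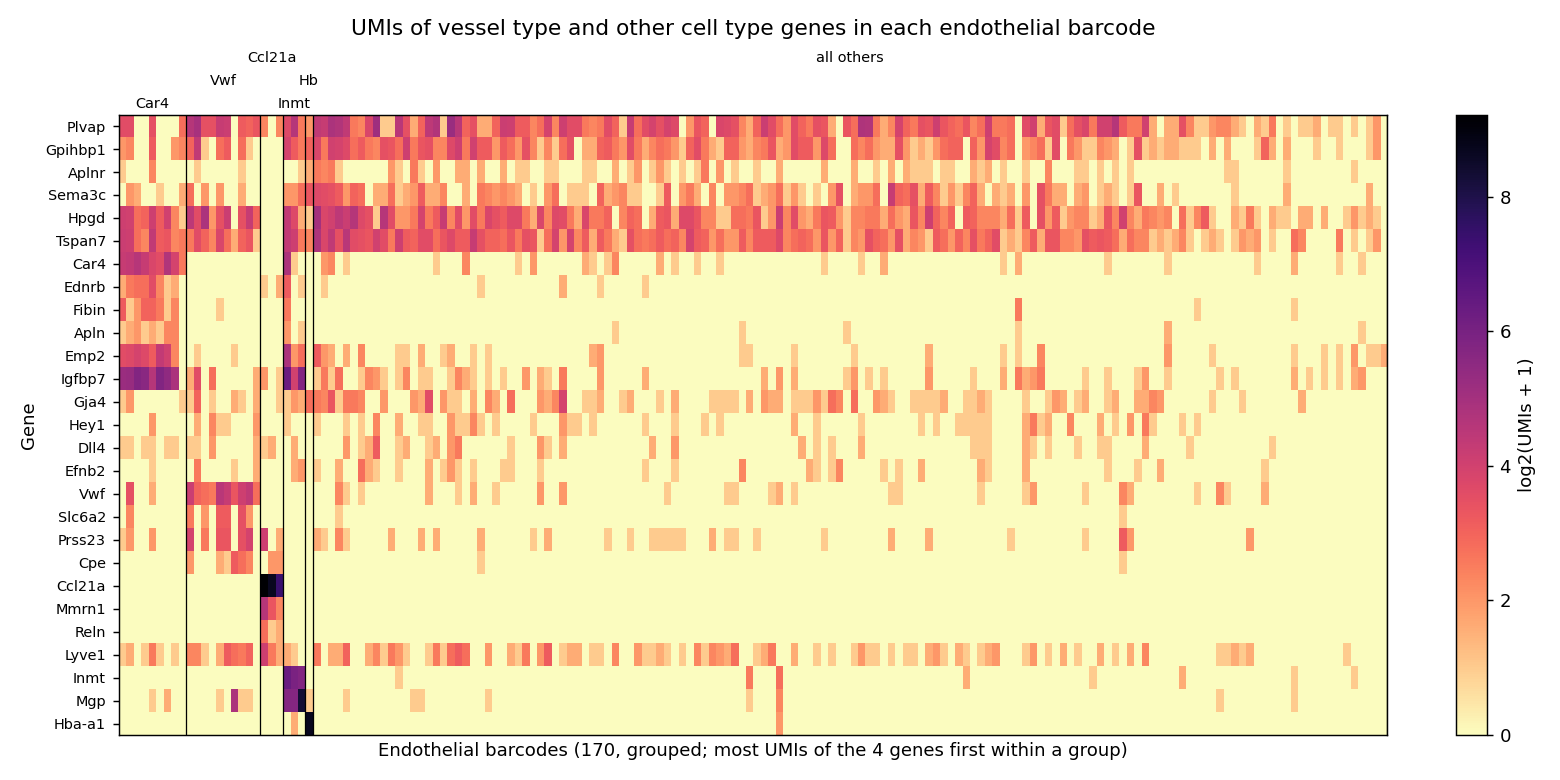
UMIs of vessel type genes and of genes of other cell types in each of the 170 endothelial barcodes, as log2 of (UMIs + 1), grouped by the single genes named at the top. A barcode in 2 groups is drawn once, so that Car4 shows 9 and Vwf 10 barcodes; Plvap and Tspan7 run through most of the 144 others.

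Fibroblast and haemoglobin transcripts were concentrated in few barcodes. Other lists were spread wider at low counts: alveolar type 2 genes had UMIs in 94 barcodes, with at most 6 in any. B cell genes had UMIs in 35, with at most 5. Inmt reached 50 or more UMIs in 3 barcodes, 1 of them Car4-high, which had a median of 11728 UMIs in all. These 3 held 418 of the 463 Mgp UMIs and all 32 Col3a1 and 16 Tcf21 UMIs, genes of fibroblasts, beside 12, 5 and 24 Plvap UMIs. Of 9 tested fibroblast genes, 3 were at least 4-fold higher in the 170 barcodes than in the others, Mgp, Inmt and Dpt. Of all genes tested 16.5% were. A single barcode held 414 Hba-a1, 252 Hba-a2 and 180 Hbb-bs UMIs, haemoglobin genes of red cells, with 35 UMIs of the 4 genes. The part of shared droplets or free RNA in these was not tested.

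Defining markers of several other cell types were few. Of 7 pan-epithelial genes 5 had 0 UMIs in the 170 barcodes, and Epcam and Krt19 had 1 each. Of 9 mural genes 6 were at 0, Pdgfrb, Cspg4 and Acta2 among them. The 4 mesothelial and 5 natural killer genes were all at 0. Of 12 macrophage and monocyte genes 10 were at 0, and of 7 platelet genes 5. Ighm and Igkc, immunoglobulin genes, were lower, at 77.5 and 23.7 CPM in endothelial barcodes against 497 and 133 CPM in the others. Of 4 tested alveolar type 1 genes 2 were higher, Clic5 at 179 against 1.52 CPM and Vegfa at 86.1 against 1.81 CPM. Of all genes tested 16.5% were higher. The rest of that list was sparse in the 170 barcodes. Hopx had UMIs in 16, Ager in 6 and Cldn18 in 2. Aqp5, Krt7 and Akap5 had UMIs in 1 each, and Rtkn2 in 0.

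The same rule found 26 of 6467 skin barcodes (0.402%). Pan-endothelial genes took 0.412% of their UMIs, against 0.0930% in the other skin barcodes and 1.98% in the lung endothelial barcodes. Fibroblast genes took 2.33% of their UMIs, against 0.162% in the other skin barcodes and 0.170% in the lung endothelial barcodes. Dcn, a fibroblast proteoglycan gene, had a UMI in 15 of the 26, against 1 of the 170. The skin barcodes were not compared gene by gene with those of lung.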

How the data were processed

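The matrices deposited by the authors give unnormalized UMI counts for each gene in each barcode. Cell Ranger and mm10 are named in the submitters' processing notes; a software version of 3.0.2 is recorded for lung, per the file headers. The aligner settings are not given in the sources used here. The main lung table lists 31053 genes; the second lung table was used only where named.

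UMIs were summed per barcode set and scaled to CPM over all genes but the 4 that chose the members. Adding 5 CPM to both sides before log2 was taken shrinks the ratios of weakly expressed genes; folds printed for single genes are plain CPM ratios. These are 3' tag counts, not divided by gene length, so levels were compared between barcodes and not between genes. Shares carry Clopper-Pearson intervals. No doublet caller was used, and the counting of antisense genes is not stated.

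The members and gene lists were chosen with earlier results of these data known. The rule for named genes takes the 30 highest ratios at 100 CPM or more in endothelial barcodes and the 12 lowest at 200 CPM or more in the others, without antigen receptor segments, haemoglobin, ribosomal protein and mitochondrial genes or models named Gm or Rik. It adds all T cell and Treg list genes and up to 6 genes of each other list. Other genes printed, and the sets by Car4, Vwf, Ccl21a, Inmt, haemoglobin and T cell UMIs, were chosen after their values were seen. Positions come from GENCODE release M21 for GRCm38, promoter sequences from RefSeq. Alternatives changed the member rule, the filters, the scaling and the table. Python 3.11.15, numpy 2.4.6, scipy 1.17.1, pandas 2.3.3 and matplotlib 3.10.9 were used.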

Additional observations from a re-analysis of the deposited data

How the results depend on the processing

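The count of endothelial barcodes was 152 with at least 8 UMIs of the 4 genes and 176 with at least 3, and 166 when the rule was applied to the second lung table. The 25 pan-endothelial genes counted as higher were 25 under every alternative run. Of the 30 highest genes, all were at least 4-fold higher under every alternative except that Ccl21a had a log2 ratio of −0.66 without the 7 barcodes with Ccl21a, high Inmt or high haemoglobin, chosen after seeing the data. Genes counted as higher ranged from 759 with a filter of 50 CPM to 1344 with 1 CPM added. Genes counted as lower moved from 220 to 396 without barcodes with 3 or more T cell UMIs, to 375 without those with 6 or more (added after seeing the data), and to 425 with totals that leave out mitochondrial and ribosomal protein genes. Against the other barcodes without the epithelial-high ones, Sftpc, Sftpa1 and Scgb1a1 turned to log2 ratios of 0.23, 0.36 and 0.26. The T cell share of UMIs, 0.166%, was 0.149% with at least 8 UMIs of the 4 genes and 0.144% in the second table; the share of barcodes with a T cell UMI, 75.3%, was 56.6% in the second table and 55.3% thinned. The cause of these changes was not tested. No paired analysis was possible because each tissue has 1 library and no test was run. With 170 barcodes, genes of few UMIs such as Prox1, Erg and Foxp3 carry wide counting error, and 1 library gives no spread between animals.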
